A study of Mus musculus with 9 samples.

Results

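Genes of the Notch pathway were followed in primary tumours of 3 mouse mammary carcinoma lines, 4T1, 66cl4 and 67NR. The members were 9 genes: the ligand genes Jag1, Jag2 and Dll1, the receptor genes Notch1, Notch2 and Notch4, and Hes1, Hey1 and Lfng, which act downstream of the receptor or modify it. They were chosen by name, with earlier results of these data known. Every probe set that the array annotation gives to 1 of them alone was used, 17 of the 45101 on the array. The brightest probe set by mean over the 9 arrays stood for its gene. All 9 members were among the 13410 of 18194 genes that passed the filter on dim signals.

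Female BALB/c mice of 7 to 9 weeks were injected with 1000000 viable cells each in a mammary gland on the right side, and the tumours were taken 15 days later. The groups were 3 mice with 4T1/CMVLUC cells, 3 with 66cl4/CMVLUC cells and 3 with 67NR/CMVLUC cells, so the CMVLUC label was common to all groups, and no group was an untreated or normal gland. RNA came from tumour areas taken by laser capture from sections, and 1 single-colour Affymetrix array was run per mouse. 4T1 and 66cl4 are known as lines that spread to the lung and 67NR as a line that does not. The study's title asks what part the epithelial-mesenchymal transition has in such spread.

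Notch receptors sit in the cell membrane and are switched on by Jagged or Delta ligands on a neighbouring cell. Binding exposes the receptor to cleavage by ADAM proteases and then by gamma-secretase, which frees the intracellular domain to enter the nucleus and join the DNA-binding protein Rbpj at genes such as Hes1 and Hey1. In the mammary gland the pathway is known for its part in luminal cell fate, and Notch4 was found as an insertion site of mouse mammary tumour virus. In vessels, Notch4 and Dll4 are endothelial genes and Notch3 is a gene of mural cells, the pericytes and smooth muscle cells of the vessel wall.

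RefSeq promoter windows were on hand for 7 of the 9 members. There was none for Hes1 and Hey1, so these 2 were not searched. Stretches of 4 of the 7 are shown here, those of Lfng, Notch4, Jag1 and Dll1. All are of build GRCm38.p6, are written 5′ to 3′ on the strand of the gene, and lie before the annotated start. Over the 250 bases before each start, 3 motifs were searched on both strands. They were TGGGAA, the core of the Rbpj site, AGGAAG, which holds the GGAA core of ETS factors, and the site of interferon regulatory factors, GAAA and GAAA with any 2 bases between them. They occurred in 21.6%, 29.5% and 2.98% of all 32851 such windows. The Lfng stretch (chr5:140607181-140607260, plus strand) is shown because among the 7 members only Lfng had TGGGAA in its window. The stretch lies 160 to 81 bases before the start, and its 2 matches, 1 on each strand and not overlapping, are in capitals.
Lfng: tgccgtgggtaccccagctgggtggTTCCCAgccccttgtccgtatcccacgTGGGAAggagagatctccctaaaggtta
The Notch4 stretch (chr17:34564045-34564244, plus strand) is shown because Notch4 had the highest fold between lines of all members, and its 3 matches to AGGAAG on either strand, none overlapping, are in capitals.
Notch4: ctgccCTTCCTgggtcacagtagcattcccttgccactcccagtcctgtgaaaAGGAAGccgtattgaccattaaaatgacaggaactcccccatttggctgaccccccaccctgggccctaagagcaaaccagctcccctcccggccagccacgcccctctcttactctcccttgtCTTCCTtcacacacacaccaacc
The stretches of Jag1 (chr2:137116521-137116640, minus strand) and Dll1 (chr17:15376933-15377052, minus strand) are shown because both genes were higher in 4T1 than in the other tumours, and neither holds any of the 3 motifs.
Jag1: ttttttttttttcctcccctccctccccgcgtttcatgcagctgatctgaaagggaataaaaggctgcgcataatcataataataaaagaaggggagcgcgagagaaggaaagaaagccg
Dll1: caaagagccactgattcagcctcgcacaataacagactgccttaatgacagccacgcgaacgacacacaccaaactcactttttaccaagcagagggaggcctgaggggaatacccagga
The only other match to AGGAAG lay in a window of Dll1 at an inner start. A match is a run of letters and no evidence of binding.

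Signals are log2 values per probe set as deposited, so a difference of 1 is a 2-fold difference. The level of a probe set depends on its own probes and is not compared between genes. Differences are given with the standard error of the linear model (SE) over 3 mice per line, and calls were made at a limma adjusted p under 0.05 over all 13410 genes (lmFit and eBayes, two-sided, Benjamini-Hochberg). The labels name separate mice. With 3 mice against 3 an exact permutation test cannot give a p below 0.1, so the model carries the tests. The array medians were 5.51 to 5.58, arrays of 1 line correlated at r = 0.972 to 0.991 across genes, and the highest of 27 bacterial control probe sets, taken as the limit of background, was 4.83 to 5.08. The labelled mammary carcinoma was checked on 10 epithelial markers. All 10 were measured, and 4 of them were not above background on any array of 66cl4 and of 67NR tumours, Cdh1 and Krt7 among them, whereas in 4T1 tumours this was so for Krt17 and Trp63 alone. The array files carry numbers in their names, and those of all 4T1 and 66cl4 arrays were below those of the 67NR arrays. Fits with that number are given where they change a call.

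**Figure D1:**
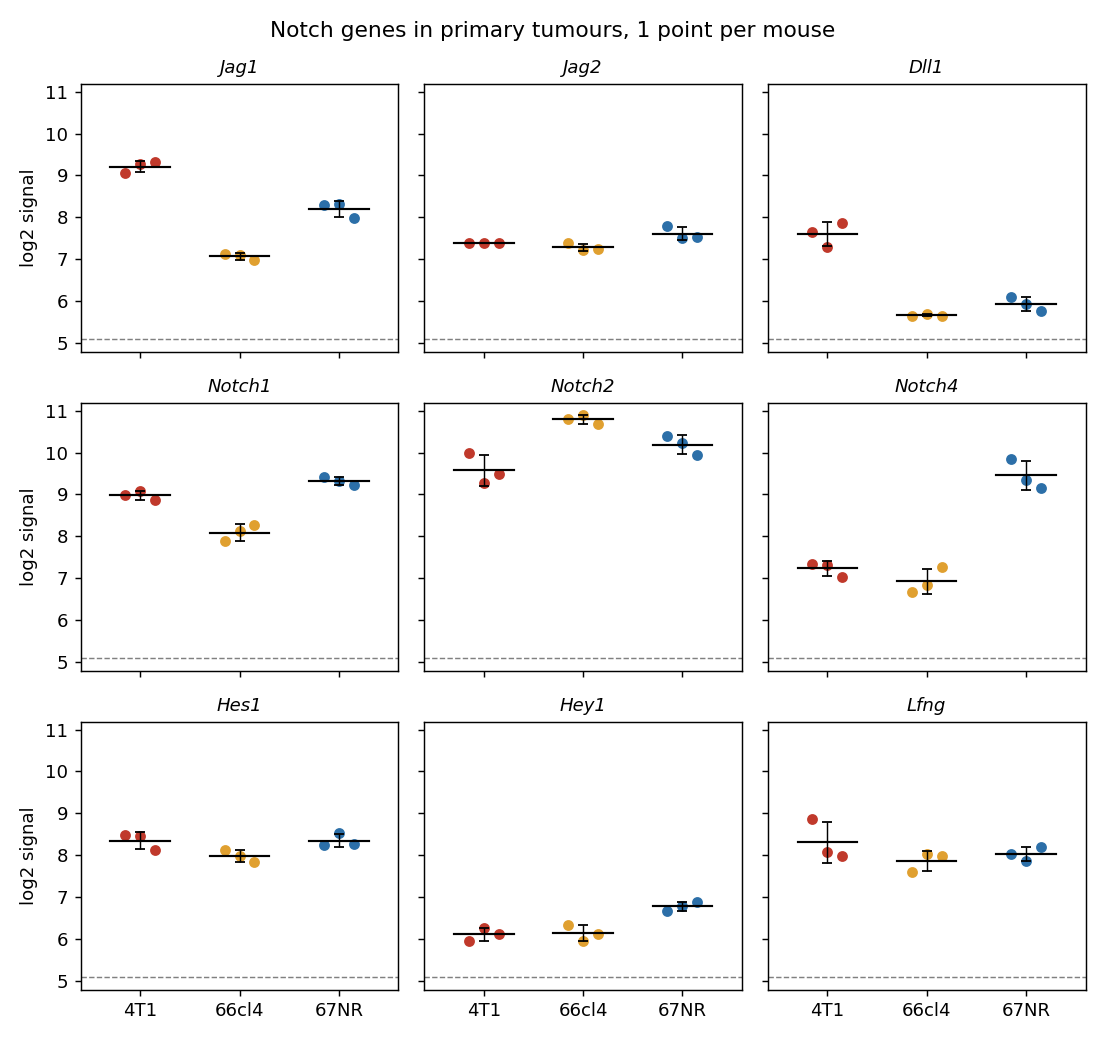
Log2 signal of the 9 members (y axis) in 4T1, 66cl4 and 67NR tumours (x axis), 1 point per mouse, with the mean as a bar and the SD as whiskers. The dashed line is the highest background limit of any array, 5.08. All points lie above it, Jag1 has its highest values in 4T1 and its lowest in 66cl4 tumours, and Notch4 has its highest in 67NR tumours.

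The ligand genes Jag1 and Dll1 were both highest in 4T1 tumours. Jag1, a ligand of the Jagged class, had log2 signals of 9.05, 9.27 and 9.31 in 4T1 tumours, 7.13, 7.09 and 6.97 in 66cl4 tumours and 8.29, 8.33 and 7.98 in 67NR tumours. None of the 3 groups overlapped another, and the lines stood in the order 4T1, 67NR, 66cl4. Jag1 was higher in 4T1 than in 67NR tumours by 1.01 ± 0.12 on the log2 scale, 2.02-fold (SE, adjusted p = 0.000165). It was lower in 66cl4 than in 67NR tumours, with a log2 difference of -1.13 ± 0.12 (adjusted p = 0.00011), and higher in 4T1 than in 66cl4 tumours by 2.15 ± 0.12, 4.42-fold (adjusted p = 1.16e-06). These calls held under all 20 alternatives run, although a mean over the 3 Jag1 probe sets gave 0.54 for 4T1 minus 67NR and 1.33 for 4T1 minus 66cl4. The dimmer Jag1 probe sets had differences of smaller size. The one with means of 5.84 (4T1), 4.39 (66cl4) and 5.21 (67NR) passed the test in all 3 comparisons (0.63, -0.82 and 1.45, adjusted p = 0.0127, 0.0038 and 9.85e-05 for 4T1 minus 67NR, 66cl4 minus 67NR and 4T1 minus 66cl4). In 66cl4 tumours that probe set was not above background, so its difference there is at least 1.23-fold from 67NR and at least 1.91-fold from 4T1. The other, with means of 5.56, 5.18 and 5.57, did not pass in any (adjusted p = 0.974, 0.0595 and 0.0561).

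Dll1, a ligand of the Delta class, had log2 signals of 7.65, 7.29 and 7.87 in 4T1 tumours, 5.65, 5.69 and 5.65 in 66cl4 tumours and 6.09, 5.94 and 5.76 in 67NR tumours. The 4T1 values lay clear of the others by more than 1. It was higher in 4T1 than in 67NR tumours by 1.67 ± 0.15, 3.19-fold (adjusted p = 2.2e-05), and higher in 4T1 than in 66cl4 tumours by 1.94 ± 0.15, 3.83-fold (adjusted p = 8.26e-06). Between 66cl4 and 67NR tumours the difference of -0.26 ± 0.15 did not pass the test (adjusted p = 0.199, 95% interval -0.60 to 0.07), although no 66cl4 value reached the lowest 67NR value. Dll1 had a single probe set.

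Jag2, the second Jagged ligand, differed little between the lines. Its log2 signals were 7.39, 7.37 and 7.39 in 4T1 tumours, 7.38, 7.23 and 7.24 in 66cl4 tumours and 7.80, 7.51 and 7.53 in 67NR tumours. It was lower in 66cl4 than in 67NR tumours by a log2 difference of -0.33 ± 0.11 (adjusted p = 0.0386), a call that ended under 9 of 20 alternatives. Among these were the fit with the file number (adjusted p = 0.0561) and the fits without 4T1 replicate 2 (0.0537), 66cl4 replicate 2 (0.114), 66cl4 replicate 3 (0.106), 67NR replicate 1 (0.133) and 67NR replicate 3 (0.0508). The differences of 4T1 from 67NR (-0.23 ± 0.11, adjusted p = 0.122, 95% interval -0.47 to 0.01) and of 4T1 from 66cl4 tumours (0.10 ± 0.11, adjusted p = 0.511, 95% interval -0.14 to 0.34) did not pass. With the mean of both Jag2 probe sets the first of these was -0.55 and passed (adjusted p = 0.00746). The dimmer Jag2 probe set gave another picture. Its means were 5.81 (4T1), 6.40 (66cl4) and 6.68 (67NR), and it was lower in 4T1 than in 67NR (-0.87 ± 0.18, adjusted p = 0.00463) and than in 66cl4 tumours (-0.59 ± 0.18, adjusted p = 0.0314), so the direction of 4T1 against 66cl4 depends on the probe set.

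Epithelial markers moved with the 2 ligand genes in 4T1 tumours. The 8 tested epithelial markers averaged 9.81 to 10.1 per array in 4T1 tumours, 6.02 to 6.36 in 66cl4 and 5.15 to 5.42 in 67NR tumours. Of the 8, 7 passed as higher in 4T1 against 67NR tumours. In 66cl4 against 67NR tumours, where Jag1 was lower, Krt8 was the marker called, higher by 6.27 ± 0.15 (adjusted p = 3.52e-08), and the other 7 did not pass, Epcam among them (-0.15 ± 0.19, adjusted p = 0.593). The part of epithelial cells in the ligand values was not tested. In tissue made of several cell types, fewer cells of a type and less RNA per cell cannot be told apart. The 10 fibroblast markers had array means of 8.97 to 10.0 in 4T1, 8.47 to 9.25 in 66cl4 and 7.86 to 8.40 in 67NR tumours, but went both ways: 6 were higher and 3 lower in 4T1 than in 67NR tumours, the lower ones being Pdgfra (-1.65), Fbln1 (-1.89) and Dpt (-2.76). The 6 tested neutrophil markers averaged 8.51 to 8.90 per array in 4T1, 7.19 to 7.89 in 66cl4 and 7.25 to 7.87 in 67NR tumours. In 4T1 tumours 3 of them were called higher than in 67NR and 4 higher than in 66cl4 tumours, with 0 lower. The part of fibroblasts and of neutrophils in the ligand values was not tested either.

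The receptor genes each had a pattern of their own. Notch4 had the highest fold between lines, with log2 signals of 7.34, 7.32 and 7.03 in 4T1 tumours, 6.67, 6.84 and 7.26 in 66cl4 tumours and 9.85, 9.34 and 9.16 in 67NR tumours. All 67NR values lay above all others, while the 4T1 and 66cl4 values overlapped. The log2 difference was -2.22 ± 0.20 for 4T1 against 67NR, 4.65-fold lower (adjusted p = 2.59e-05), and -2.53 ± 0.20 for 66cl4 against 67NR, 5.77-fold lower (adjusted p = 1.75e-05). Between 4T1 and 66cl4 tumours it was 0.31 ± 0.20 (adjusted p = 0.257, 95% interval -0.14 to 0.77). The 2 other Notch4 probe sets had group means of at most 5.01 and were too dim to be tested. In 1 of them the 67NR mean was the highest (4.43 in 4T1, 4.47 in 66cl4 and 5.01 in 67NR). The other, below background on all arrays, was higher in 4T1 than in 67NR tumours (means 4.14 and 3.81, no overlap). With the mean over the 3 probe sets the differences from 67NR were -0.83 in 4T1 and -1.02 in 66cl4, and both remained called.

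Most endothelial markers were low in the same tumours as Notch4. The 16 endothelial markers averaged 7.46 to 7.65 per array in 4T1 tumours, 6.86 to 7.19 in 66cl4 and 8.71 to 9.12 in 67NR tumours. Against 67NR tumours, 14 of them were lower in 4T1 (median log2 difference -1.53) and 16 in 66cl4 (median -1.85), with none called higher. The 2 not called in 4T1 were Flt1 (0.73 ± 0.37, adjusted p = 0.149) and Eng (0.04 ± 0.11, adjusted p = 0.778). In 4T1 against 66cl4 tumours, where Notch4 did not pass, 8 of the 16 markers were higher and 0 lower. No marker was at background on all arrays of a line, although Erg was above it on 1 of 3 66cl4 arrays. The part of these cells in the Notch4 values was not tested.

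**Figure D2:**
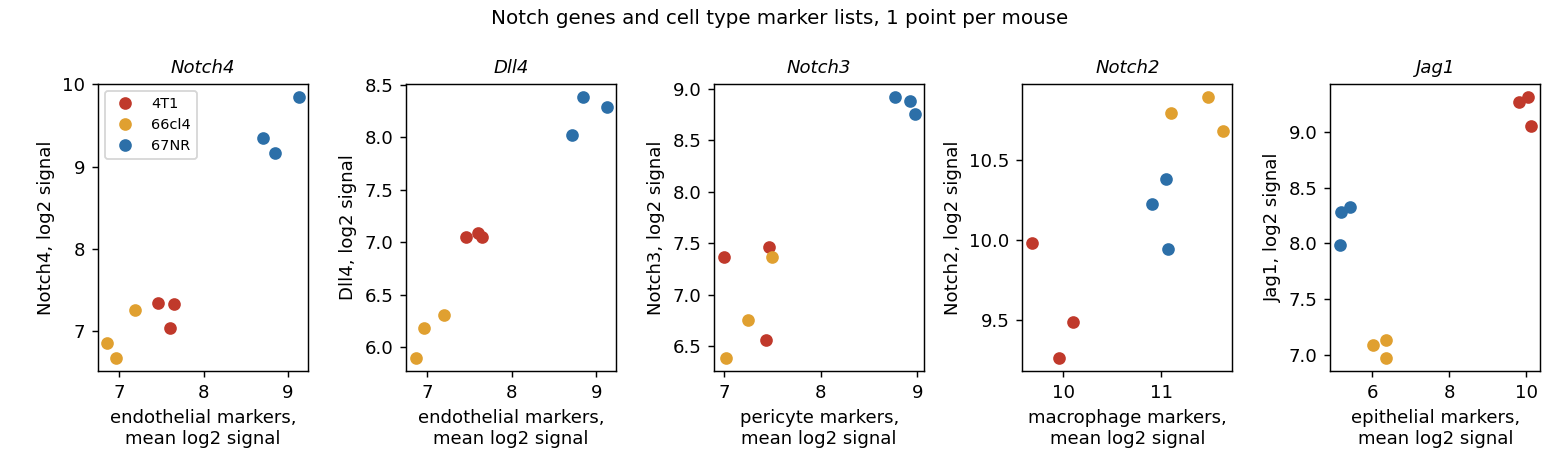
Log2 signal of Notch4, Dll4, Notch3, Notch2 and Jag1 (y axes) against the mean log2 signal of the tested markers of a cell type (x axes), 1 point per mouse, coloured by line. For Notch4 and Dll4 the 67NR arrays lie at the upper right, and for Jag1 the 67NR arrays lie above the 66cl4 arrays at a lower marker level.

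Notch1 was lowest in 66cl4 tumours. Its log2 signals were 8.99, 9.09 and 8.86 in 4T1 tumours, 7.88, 8.13 and 8.26 in 66cl4 tumours and 9.40, 9.32 and 9.22 in 67NR tumours, with no overlap between any 2 lines. It was lower in 66cl4 than in 67NR tumours by a log2 difference of -1.22 ± 0.12, 2.34-fold (adjusted p = 6.61e-05), and higher in 4T1 than in 66cl4 tumours by 0.89 ± 0.12, 1.85-fold (adjusted p = 0.000342). The difference of 4T1 from 67NR tumours, -0.34 ± 0.12, lay just outside the threshold (adjusted p = 0.0532) and passed under 6 of 20 alternatives, among them quantile normalization (adjusted p = 0.0238). With the file number as a covariate it was -0.01 (adjusted p = 0.984), with the hybridization controls -0.21 (0.557) and with the mean of both probe sets -0.23 (0.132). The dimmer Notch1 probe set was likewise lower in 66cl4 than in 67NR (-0.78 ± 0.13, adjusted p = 0.00147) and higher in 4T1 than in 66cl4 tumours (0.66 ± 0.13, adjusted p = 0.00303). The 7 tested markers of T, NK and B cells, in which Notch1 is also known to be active, averaged 6.39 to 6.92 per array in 4T1 tumours, 5.93 to 6.27 in 66cl4 and 6.87 to 7.36 in 67NR tumours. Of these, 6 were called lower in the 66cl4 set against 67NR, and Cd79a was not called (0.50 ± 0.50, adjusted p = 0.478). For 4T1 minus 66cl4, 3 of the 7 were called higher and 1 lower, Ncr1 (-1.24 ± 0.20). The 16 endothelial markers given beside Notch4 were all called lower for 66cl4 minus 67NR. Of these 16, 8 were called higher and 0 lower for 4T1 minus 66cl4. The part of T, NK and B cells and of endothelial cells in the Notch1 values was not tested.

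Notch2 stood the other way, highest in 66cl4 tumours. Its log2 signals were 9.98, 9.26 and 9.49 in 4T1 tumours, 10.80, 10.90 and 10.68 in 66cl4 tumours and 10.38, 10.23 and 9.94 in 67NR tumours. The 66cl4 values lay above all others, and 1 of the 4T1 values lay within the 67NR range. Notch2 was lower in 4T1 than in 66cl4 tumours by a log2 difference of -1.21 ± 0.18, 2.32-fold (adjusted p = 0.000602), or by -0.68 with the mean of both probe sets. Its differences from 67NR, -0.61 ± 0.18 in 4T1 (adjusted p = 0.0251) and 0.61 ± 0.18 in 66cl4 (adjusted p = 0.0274), passed by little and in opposite directions. The first ended under 5 of 20 alternatives and the second under 7, in both cases with the file number as a covariate (adjusted p = 0.163 and 0.152). Leaving out 4T1 replicate 2 or 3, or 67NR replicate 1 or 2, ended the first (0.088, 0.0666, 0.0893 and 0.0726), and leaving out 66cl4 replicate 1 or 2, or 67NR replicate 2 or 3, ended the second (0.0683, 0.0859, 0.063 and 0.101). The other Notch2 probe set had means of 4.76, 4.91 and 5.05 in 4T1, 66cl4 and 67NR tumours, at the limit of background, and did not pass in any comparison. The 11 tested macrophage markers averaged 9.68 to 10.1 per array in 4T1 tumours, 11.1 to 11.6 in 66cl4 and 10.9 to 11.1 in 67NR tumours. Of them 10 were lower in 4T1 than in 66cl4 tumours. In 66cl4 against 67NR tumours Cd68, Mrc1, Cd14 and Cd163 were higher, 7 were not called and the median difference was 0.00. Their part in the Notch2 values was not tested.

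Of the downstream genes, Hey1 alone passed the test. Hey1, a transcriptional repressor induced by Notch in vessels and elsewhere, had log2 signals of 5.96, 6.25 and 6.12 in 4T1 tumours, 6.34, 5.96 and 6.11 in 66cl4 tumours and 6.67, 6.79 and 6.87 in 67NR tumours. All 67NR values lay above the rest. The log2 difference from 67NR was -0.67 ± 0.13 in 4T1 (1.59-fold lower, adjusted p = 0.00245) and -0.64 ± 0.13 in 66cl4 tumours (1.56-fold lower, adjusted p = 0.00368). Between 4T1 and 66cl4 tumours it was -0.03 ± 0.13 (adjusted p = 0.887, 95% interval -0.32 to 0.26). With the spiked hybridization controls as a covariate the call of 4T1 against 67NR ended (adjusted p = 0.144). These controls were lower on all 4T1 arrays than on all 67NR arrays. Most of the endothelial markers given beside Notch4 were low in the same tumours, and the part of endothelial cells in Hey1 was not tested.

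Hes1, the repressor most used as a readout of the pathway, differed by at most 0.37 between lines. Its log2 signals were 8.48, 8.45 and 8.12 in 4T1 tumours, 8.14, 7.98 and 7.84 in 66cl4 tumours and 8.25, 8.53 and 8.27 in 67NR tumours. The 4T1 and 67NR values were mixed, with a difference of 0.00 ± 0.14 (adjusted p = 0.993) and a 95% interval of -0.30 to 0.31. The 66cl4 values lay below all 67NR values (-0.37 ± 0.14, adjusted p = 0.0623, 95% interval -0.67 to -0.06), and those of 4T1 and 66cl4 overlapped at their edge (0.37 ± 0.14, adjusted p = 0.0549, 95% interval 0.06 to 0.67). These differences passed under 4 and 5 of 20 alternatives, quantile normalization among them (adjusted p = 0.0218 and 0.0227).

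Lfng, which encodes the lunatic fringe glycosyltransferase that alters how receptors respond to Jagged and Delta ligands, had log2 signals of 8.88, 8.08 and 7.97 in 4T1 tumours, 7.59, 8.02 and 7.98 in 66cl4 tumours and 8.02, 7.86 and 8.19 in 67NR tumours. The lines overlapped, and 1 of the 4T1 mice lay above the rest. The differences were 0.29 ± 0.23 for 4T1 minus 67NR, -0.16 ± 0.23 for 66cl4 minus 67NR and 0.45 ± 0.23 for 4T1 minus 66cl4 (adjusted p = 0.357, 0.627 and 0.15), with 95% intervals of -0.22 to 0.80, -0.67 to 0.35 and -0.07 to 0.96. The dimmer Lfng probe set did not pass in any comparison either. Lfng, whose promoter stretch with TGGGAA is shown above, thus had no called difference.

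**Figure D3:**
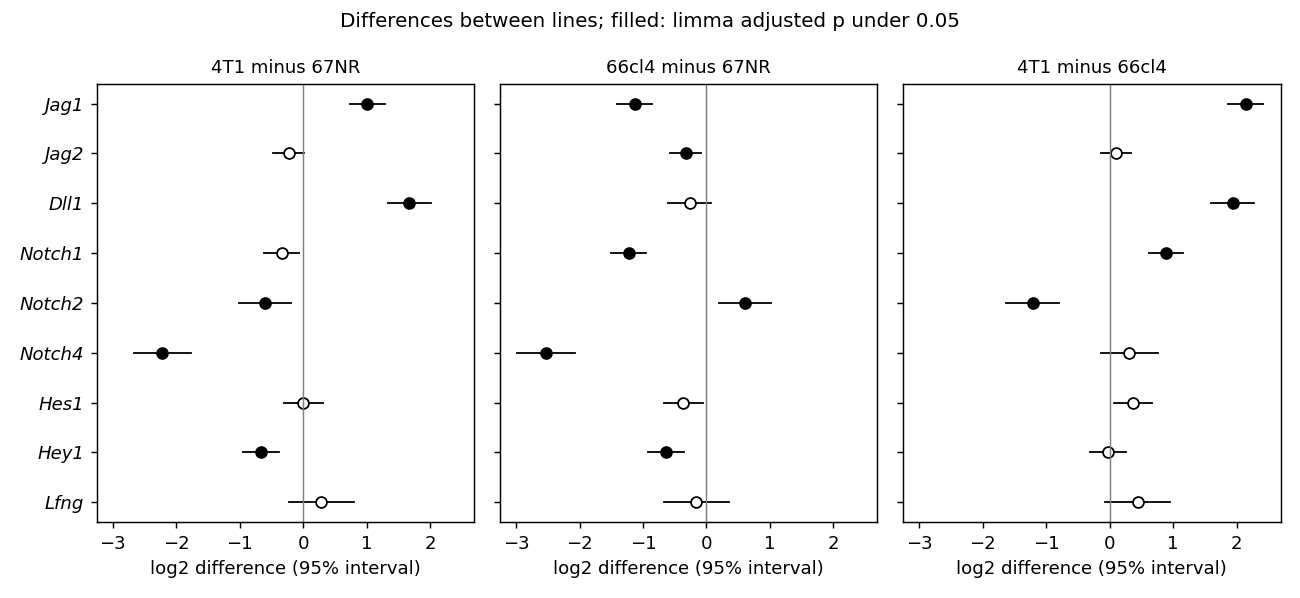
Log2 difference of each member (x axis) for 4T1 minus 67NR, 66cl4 minus 67NR and 4T1 minus 66cl4 tumours, with the 95% interval of the limma fit as a line. Filled points have an adjusted p under 0.05: Jag1 is filled in all 3 panels, Notch4 is near -2.22 and -2.53 in the first and second, and Hes1 and Lfng are open in all 3.

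Taking the members by comparison, 2 were higher and 3 lower in 4T1 than in 67NR tumours, 5 of 9, where 39.9% of all tested genes were called (19.4% higher, 20.5% lower). In 66cl4 against 67NR tumours 1 was higher and 5 lower, 6 of 9, against 36.1% of all genes (20.0% higher, 16.0% lower). In 4T1 against 66cl4 tumours 3 were higher and 1 lower, 4 of 9, against 41.3% of all genes (17.9% higher, 23.4% lower). By the F-test among the 3 lines, Jag2, Hes1 and Lfng were the members not called (adjusted p = 0.0592, 0.0604 and 0.252). The same F-test called 56.6% of all tested genes. The median log2 difference of the members was -0.23, -0.37 and 0.37 in these comparisons, beside -0.03, 0.01 and -0.03 over all tested genes. The 3 values per line did not overlap for 6, 8 and 4 of the 9 members, beside 49.7%, 52.5% and 50.9% of all tested genes. The comparisons share arrays, the first and second those of 67NR. The 5 lower of 9 in 66cl4 against 67NR tumours stand beside 16.0% of all genes, and no test of the members as a set was made. Jag2, 1 of these 5, lost its call under 9 of 20 alternatives. The members were chosen with earlier results of these data known, so these counts cannot show an excess over all genes.

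**Figure D4:**
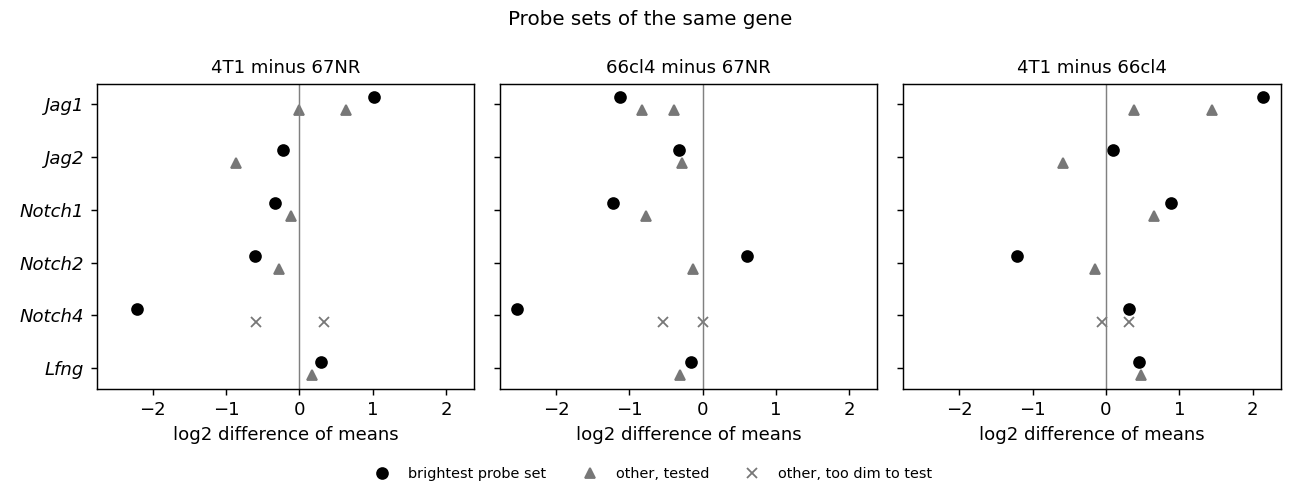
Log2 difference of line means (x axis) for the 6 members with more than 1 probe set in the 3 comparisons. Circles are the brightest probe set, triangles other tested ones and crosses those too dim to test. The Jag1 and Notch1 triangles lie on the same side as their circles or near 0, while for Jag2 in 4T1 minus 66cl4 and Notch2 in 66cl4 minus 67NR the circle and triangle lie on opposite sides of 0.

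Among the other ligands, receptors and targets, the vascular genes were lowest in the tumours where Notch4 was low. Dll4, the Delta ligand of sprouting endothelium, had log2 signals of 7.05, 7.05 and 7.08 in 4T1 tumours, 6.19, 5.90 and 6.31 in 66cl4 tumours and 8.29, 8.02 and 8.39 in 67NR tumours. No 2 lines overlapped. Its difference was -1.17 ± 0.13 for 4T1 minus 67NR (adjusted p = 0.000112), -2.10 ± 0.13 for 66cl4 minus 67NR (4.52e-06) and 0.93 ± 0.13 for 4T1 minus 66cl4 (0.000444). Notch3, the mural cell receptor, had 7.37, 6.56 and 7.46 in 4T1 tumours, 6.76, 6.39 and 7.37 in 66cl4 tumours and 8.75, 8.92 and 8.88 in 67NR tumours. It was lower than in 67NR tumours by a log2 difference of -1.72 ± 0.28 in 4T1 and -2.02 ± 0.28 in 66cl4 tumours (adjusted p = 0.000871 and 0.000417). The 10 pericyte markers averaged 6.99 to 7.46 per array in 4T1 tumours, 7.02 to 7.49 in 66cl4 and 8.77 to 8.97 in 67NR tumours, with 8 lower in 4T1 and 9 lower in 66cl4 than in 67NR. Their part in the Notch3 values, and that of endothelial cells in the Dll4 values, was not tested.

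Dlk1, a Delta-like protein that lacks the domain by which other ligands bind the receptor, was lower than in 67NR tumours in 4T1 (-1.29 ± 0.26, adjusted p = 0.00316) and in 66cl4 tumours (-1.26 ± 0.26, adjusted p = 0.00425). Heyl, a relative of Hey1, was lower in 66cl4 than in 67NR (-0.81 ± 0.17, adjusted p = 0.00415) and higher in 4T1 than in 66cl4 tumours (0.56 ± 0.17, adjusted p = 0.0229). In 66cl4 tumours Heyl had a mean of 5.05, near the limit of background, and was above it on 2 of 3 arrays. Hes6, which counters Hes1, was the fifth gene of this list to be called, 0.60 ± 0.16 higher in 4T1 than in 67NR tumours (adjusted p = 0.0142). Nrarp, a target that feeds back on the pathway, did not pass in any comparison (-0.20, -0.34 and 0.14, adjusted p = 0.315, 0.0959 and 0.475). Of the 9 tested genes in this list of 12, 1 was higher and 3 lower in 4T1 than in 67NR tumours. In 66cl4 against 67NR tumours 0 were higher and 4 lower, and in 4T1 against 66cl4 tumours 2 and 0. The shares called were 44.4%, 44.4% and 22.2%, beside 39.9%, 36.1% and 41.3% of all tested genes. Dll3, Dner and Hey2 were at background on every array and were not tested.

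Genes that act on the receptor changed in several directions. Of the 4 tested sugar-adding enzymes, Mfng, encoding manic fringe, was lower than in 67NR tumours in 4T1 (-0.58 ± 0.18, adjusted p = 0.0247) and 66cl4 (-1.01 ± 0.18, adjusted p = 0.00163), and Rfng, encoding radical fringe, was lower in 4T1 than in 67NR (-0.36 ± 0.09, adjusted p = 0.00963) and 66cl4 tumours (-0.49 ± 0.09, adjusted p = 0.00176). Of 8 tested protease genes, 2 were higher and 1 lower in 4T1 than in 67NR tumours. In 66cl4 against 67NR tumours 2 were higher and 2 lower, and in 4T1 against 66cl4 tumours 2 and 2. The shares called were 37.5%, 50% and 50%, beside 39.9%, 36.1% and 41.3% of all tested genes. Furin, the protease that cuts the receptor precursor in the Golgi, averaged 9.65 ± 0.37 over 4T1, 8.14 ± 0.14 over 66cl4 and 8.75 ± 0.06 over 67NR arrays (SD, n = 3). Furin was higher in 4T1 than in 67NR by 0.90 ± 0.17 (adjusted p = 0.00216), lower in 66cl4 than in 67NR by a log2 difference of -0.61 ± 0.17 (0.0186), and higher in 4T1 than in 66cl4 by 1.51 ± 0.17 (9.45e-05). Of the gamma-secretase genes, Psenen was higher in 66cl4 than in 67NR tumours (0.75 ± 0.10, adjusted p = 0.000311) and lower in 4T1 than in 66cl4 tumours (-0.74 ± 0.10, adjusted p = 0.000259). Aph1b was lower in 4T1 than in 67NR (-0.72 ± 0.11, adjusted p = 0.000606) and 66cl4 tumours (-0.99 ± 0.11, adjusted p = 8.16e-05). Aph1a was higher in 4T1 than in 67NR tumours (0.55 ± 0.19, adjusted p = 0.0451), and Ncstn was higher in 66cl4 than in 67NR tumours (0.46 ± 0.12, adjusted p = 0.0115). Adam10, the main protease of the first cut, was lower in 66cl4 than in 67NR tumours (-0.54 ± 0.13, adjusted p = 0.0106).

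Rbpj, the DNA-binding partner of the receptor, averaged 10.63 ± 0.13 over 4T1, 10.95 ± 0.21 over 66cl4 and 10.61 ± 0.16 over 67NR arrays (SD, n = 3) and did not pass in any comparison (adjusted p = 0.949, 0.0854 and 0.089). Of 8 tested nuclear genes 2, 1 and 2 were called in 4T1 minus 67NR, 66cl4 minus 67NR and 4T1 minus 66cl4. The shares called were 25%, 12.5% and 25%, beside 39.9%, 36.1% and 41.3% of all tested genes. Ep300 and Kat2a were lower in 4T1 than in 67NR (-0.52 and -0.41, adjusted p = 0.00265 and 0.0256). The acetyltransferase gene Crebbp was higher in 66cl4 than in 67NR tumours (0.62 ± 0.13, adjusted p = 0.00479). Ep300 and Crebbp were also lower in 4T1 than in 66cl4 tumours (-0.56 and -0.98, adjusted p = 0.00178 and 0.00028).

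Ubiquitin ligases and endocytic regulators were a list of 14 tested genes. Of these, 2 were higher and 2 lower in 4T1 than in 67NR tumours (28.6% called, all genes 39.9%). In 66cl4 against 67NR tumours 4 were higher and 2 lower (42.9%, all genes 36.1%). In 4T1 against 66cl4 tumours 2 were higher and 6 lower, 8 of 14 (57.1%, all genes 41.3%). Neurl1b, a ligase that acts on ligand uptake, had log2 signals of 6.77, 7.07 and 6.97 in 4T1 tumours, 8.57, 8.86 and 8.91 in 66cl4 tumours and 7.25, 7.18 and 7.62 in 67NR tumours. It was higher in 66cl4 than in 67NR by 1.43 ± 0.15 (adjusted p = 8.77e-05) and lower in 4T1 than in 66cl4 tumours by a log2 difference of -1.85 ± 0.15 (adjusted p = 1.2e-05). Dtx4, a Deltex ligase, was higher than in 67NR tumours in 66cl4 by 1.45 ± 0.17 (adjusted p = 0.000143) and in 4T1 by 0.73 ± 0.17 (adjusted p = 0.00594). Dtx3l, a relative also known as an interferon-stimulated gene, was higher in 4T1 than in 67NR by 1.42 ± 0.16 (adjusted p = 8.18e-05) and than in 66cl4 tumours by 1.25 ± 0.16 (adjusted p = 0.000189). Dtx2 was lower in 4T1 than in 67NR (-0.63 ± 0.10, adjusted p = 0.000619) and 66cl4 tumours (-0.66 ± 0.10, adjusted p = 0.000455).

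**Figure D5:**
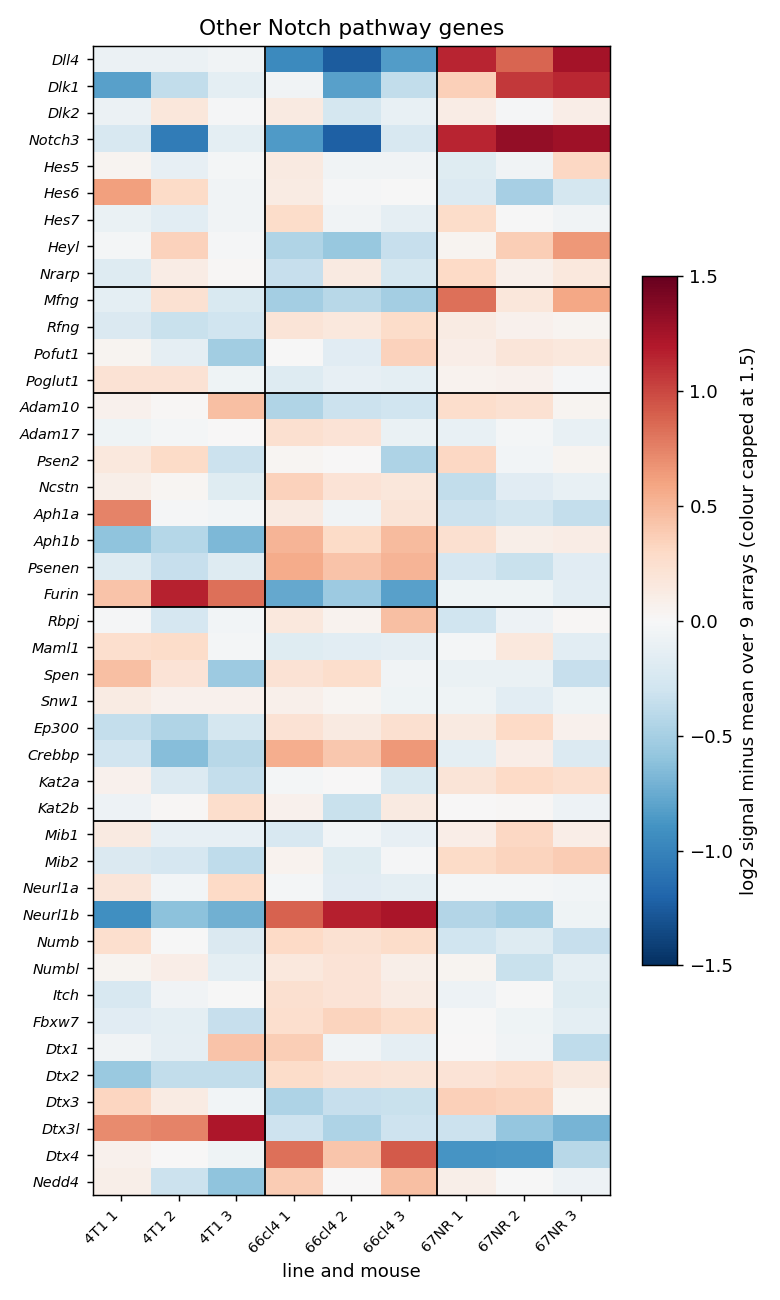
Log2 signal minus its mean over the 9 arrays (colour, capped at 1.5) for the 43 tested other Notch pathway genes (rows) in each mouse (columns, 4T1, 66cl4, 67NR). Lines part, from top to bottom, ligands with receptors and targets, sugar-adding enzymes, proteases, nuclear partners and regulators of turnover. Dll4 and Notch3 are highest in 67NR, Furin and Dtx3l in 4T1, and Neurl1b in 66cl4 tumours.

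Over these 5 lists, 43 of 51 genes were tested. In 4T1 against 67NR tumours 5 were higher and 10 lower (34.9% called), in 66cl4 against 67NR 7 and 9 (37.2%) and in 4T1 against 66cl4 6 and 11 (39.5%), near the shares over all genes given for the members.

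For each member called in at least 1 comparison, the 3 genes with the most similar course over the 9 arrays were found, as those with the smallest root mean square difference between log2 signals centred on their own means. Other members were not considered. For Jag1 they were Irf1 (0.12), Batf2 (0.16) and Tap2 (0.17), in a gene with a range of 2.34 over the arrays. For Notch4, with a range of 3.18, they were Unc45b (0.15), Cdh5 (0.22), which is among the endothelial markers, and Vstm4 (0.22). Dll1 was nearest to Arhgap8 (0.15), Dhx40 (0.16) and Shtn1 (0.16). Notch1 was nearest to Gnptab (0.11), Csf2rb2 (0.12) and Csf2rb (0.12), of which the last 2 are close relatives whose probe sets can share transcripts. Notch2 was nearest to Tsc22d1 (0.14), Poglut3 (0.15) and Sec14l1 (0.16), and Hey1, with a range of 0.92, to Dusp26 (0.08), Klre1 (0.09) and Nxpe3 (0.11). Dusp26 and Klre1 were above background on the 3 67NR arrays alone, so their course over the other 6 arrays is one of background values. For Jag2, whose range was 0.57, the 3 were Cfap126 (0.05), Prr29 (0.06), which was above background on 2 of 9 arrays, and Adck2 (0.06). Arhgap8, Unc45b and Vstm4 were above background on 6, 6 and 8 arrays, and all others on 9.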

How the data were processed

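The authors deposited 1 value table with 45101 probe sets and 9 arrays. That its values are log2 signals was read from the deposited values, which ran from 2.42 to 14.80, and the authors' summary and normalization methods are not given in the sources used here. Array 75th percentiles were 7.58 to 7.74 and no further scaling was made. Precision is limited by the 3 arrays run per line. The annotation assigned 34958 probe sets to 1 gene and 932 to several, and 9211 were unnamed here. Symbols were updated through Entrez identifiers against a RefSeq table of GRCm38.p6, which 34754 matched. The build behind the array was not stated.

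The filter kept genes whose signal exceeded the 40th percentile of the array in 3 or more mice. limma 3.58.1 in R 4.3.3 fitted group means to all 9 arrays, with 6 residual and 3.63 prior degrees of freedom and no covariate. The code was tested on simulated data. "At least" folds set the brighter line's mean against the background limit of the dimmer line's arrays. Named genes were all members, Notch3, Dll4, Heyl, Nrarp and Rbpj, up to 4 called genes per list by smallest F-test p, and the 3 nearest genes per called member. Hes6, Aph1a, Ncstn and the single markers were named after their values were seen. The members and lists were chosen with earlier results of these data known. Alternatives varied the filter, normalization, probe set, samples, covariates and eBayes settings, and left out each array in turn.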

Additional observations from a re-analysis of the deposited data

How the results depend on the processing

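The 27 member differences were recomputed under 20 alternatives, and of these 540 values 502 kept their side of the threshold, 22 lost the call and 16 gained it. None of those called changed sign, while 14 that were called in neither fit did. The calls lost were those of Jag2, Notch2 and Hey1, and those gained were of Jag2, Notch1 and Hes1, each named with its comparison in the text. The count of members called ranged over these alternatives from 4 to 6 in 4T1 minus 67NR, 4 to 7 in 66cl4 minus 67NR and 4 to 5 in 4T1 minus 66cl4. With all probe sets as separate features, more features were tested and 9255, 7855 and 9362 were called, beside 5348, 4839 and 5538 genes. In 4T1 minus 67NR the file number as a covariate left 2661 genes called and the hybridization controls 2151. Both fits have fewer residual degrees of freedom, and all 67NR arrays had the highest file numbers. The hybridization controls were 10.30 to 10.72 on 4T1 arrays and 10.87 to 11.47 on 67NR arrays. Both covariates thus separate 4T1 from 67NR arrays. A mean over the probe sets of Jag1 brought its difference to 0.54 in 4T1 minus 67NR and 1.33 in 4T1 minus 66cl4, and that of Notch2 to 0.24 in 66cl4 minus 67NR and -0.68 in 4T1 minus 66cl4. With the hybridization controls Notch2 moved to -1.15 in 4T1 minus 67NR and 0.37 in 66cl4 minus 67NR. The causes of these changes were not tested. The replicate numbers share only a label: deviations of same-numbered arrays correlated at -0.115 to 0.159. With the replicate number as a replicate block, 5, 6 and 5 members were called, the added one being Hes1 in 4T1 minus 66cl4 (adjusted p = 0.0454). Probe sets near background limit what can be said of the dimmer Jag1, Notch2 and Notch4 probe sets.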
